A study of Oryzias latipes with 24 samples.

Results

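Medaka embryos of stages 38 and 40, the last 2 embryonic stages sampled, were compared with embryos of stages 29 and 32, at which the organs are being laid down. Libraries were assigned by their stage label alone. They are 4 libraries of stages 38 and 40 and 4 libraries of stages 29 and 32, which makes 8 of the 24 libraries of the series and 8 of its 22 stage libraries. The labels call each of the 8 libraries compared a whole embryo of medaka (Oryzias latipes), a small freshwater teleost. The study counts both stages among its embryonic ones, which run until hatching. The labels name no treatment or genetic change for any of these libraries. The study's methods list a d-rR line with an olvas-GFP transgene among the strains used, beside Hd-rR and Qurt. Whether a library labelled d-rR / Qurt carries that transgene is not stated in the sources used here. The strain is the inbred Hd-rR for 7 of the 8, and replicate 2 of stage 40 carries the label d-rR / Qurt, so that strain and replicate cannot be told apart at that stage. Per the study's methods, embryos were gathered in numbers at each stage, so a library is taken to be a pool of them. The labels do not say whether replicates came from separate clutches, so p-values measure only the spread between libraries. For single genes this is the spread between the libraries of a stage, over all 22 stage libraries. In bulk RNA of whole embryos, fewer cells of a type and less RNA per cell cannot be told apart.

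An embryo of this age passes from building tissue to running it. Dividing progenitors need the machinery of DNA replication and mitosis, which cells leaving the cell cycle switch off, and rapid growth also draws on new ribosomes, splicing factors and proteasomes. A hatchling must swim, see and digest at once. Its muscle fibres, photoreceptors, synapses, gut, pancreas and liver depend on proteins that only differentiated cells make in quantity, such as myosins, opsins, receptors and digestive enzymes. Between these programs stand transcription factors and Notch signals, which hold cells as progenitors or commit them to a lineage.

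Expression is given in TPM, the share of the polyadenylated RNA of a library that a gene holds per unit of transcript length, so a gene falls when others take a larger share. TPM keeps no read depth, and the depth of each library is unknown here. The 4 prehatching libraries held 18996 to 19501 genes at 1 TPM or more and the earlier 4 held 16909 to 18237. The 100 most abundant genes took 39.8% ± 1.7 of the TPM at stages 38 and 40 and 34.8% ± 2.8 at stages 29 and 32 (SD, n = 4 each). The exact permutation test gave p = 0.0286 two-sided for both measures, the smallest value that 4 against 4 allows, and 0.0286 after adjustment over the 4 measures tested. It shuffled the 8 libraries freely and took no account of the pairing by replicate number described under the processing. Spearman's rho over all genes was 0.952 to 0.981 between the 2 libraries of a stage and 0.83 to 0.924 between the pairs of stages. In the genes called lower, the libraries of stage 38 stood farther apart than those of the other stages compared. Of the genes called lower, 568 were at least 1 log2 unit above replicate 2 in stage 38 replicate 1 and 14 were as far below it. These counts were 117 and 96 at stage 40, 39 and 67 at stage 29, and 75 and 94 at stage 32. Of the genes called higher, 680 were at least 1 log2 unit higher in stage 38 replicate 2 than in replicate 1, and 176 were as far lower. Replicate 2 also stood above replicate 1 at the earlier stages, with counts of 343 and 10 at stage 29 and 491 and 29 at stage 32. At stage 40 they were 346 and 266.

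A gene was called when its adjusted p (limma on log2(TPM + 1), Benjamini-Hochberg over all genes tested) lay below 0.05 and it moved by 1 or more on the log2 scale, up or down. Each log2 change below is the mean of stages 38 and 40 minus that of stages 29 and 32 on the log2(TPM + 1) scale, given with its SE, and understates the change of low genes. Of 21179 genes tested, 3756 (17.7%) were higher and 3012 (14.2%) were lower at stages 38 and 40. The 4 prehatching libraries all lay above or all below the 4 earlier ones for 47.3% of all genes tested. Among the called genes this held for 3370 of the 3756 rises and 2822 of the 3012 falls. The split depends on the scaling. The median log2 change of all genes was -0.07 as deposited and 0.19 after median-of-ratios scaling, which gave 4810 genes higher and 1636 lower. That made rises 74.6% of the calls, against 55.5% as deposited. Falls near the threshold therefore depend on this choice, and list counts of 5 or more that it moves by over 1.5 times are given below under both scalings. The 38 gene lists used below were drawn up with earlier results of these data known. They hold 2352 entries, and an entry could also match its symbol with a or b added. The lists have 1245 tested members, which are 1211 distinct genes, since a gene can stand in more than 1 list. Counts of the lists cover the tested members alone.

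**Figure D1:**
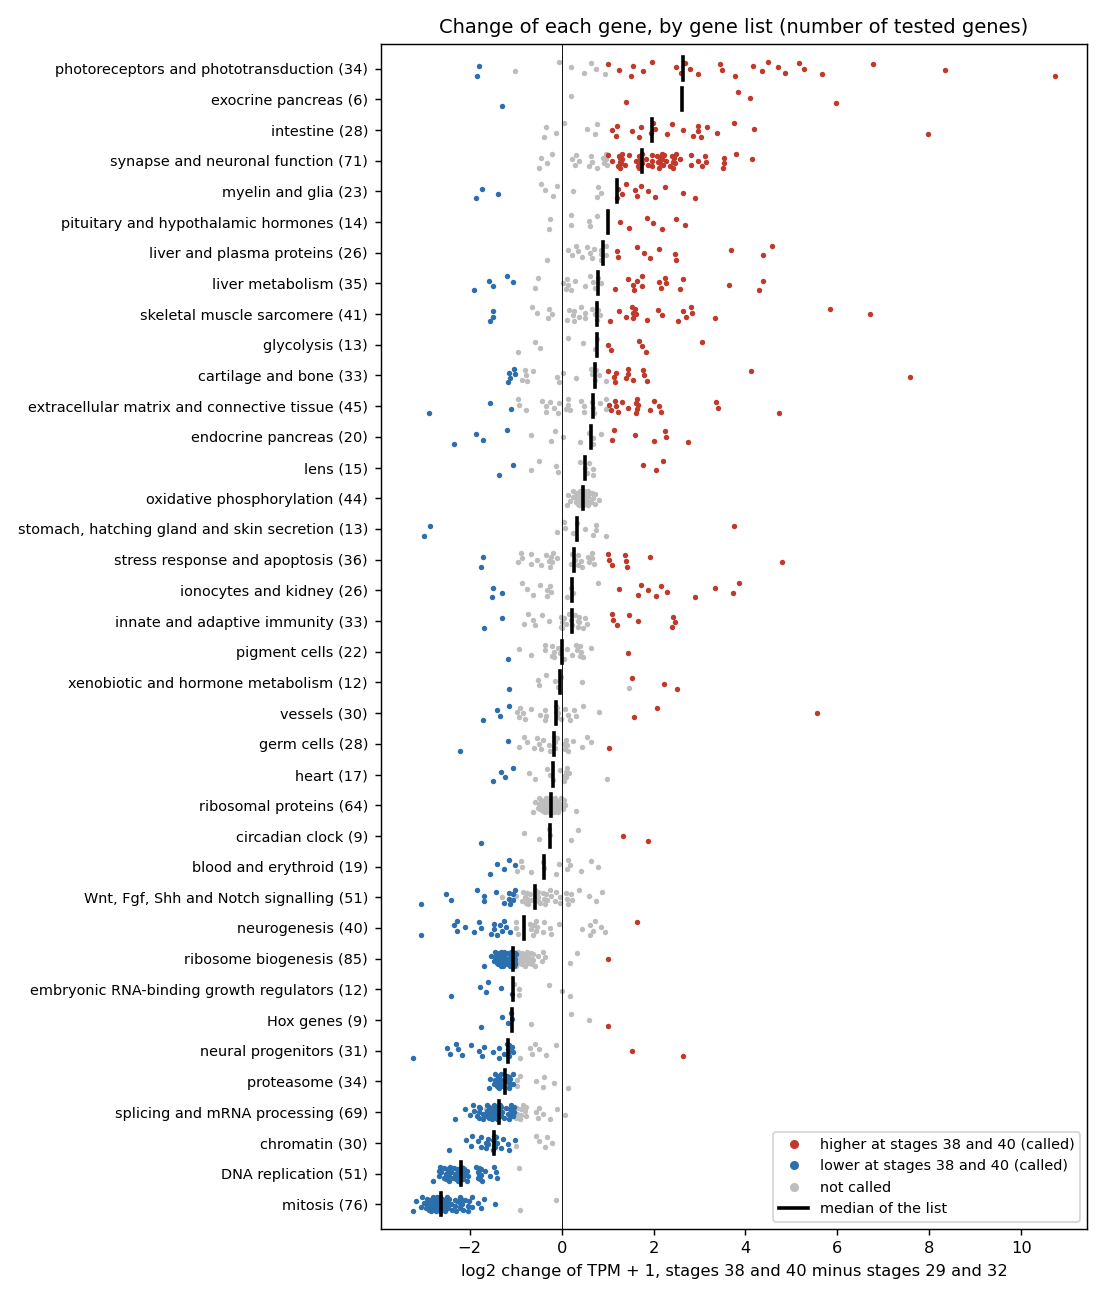
Log2 change of TPM + 1 (stages 38 and 40 minus stages 29 and 32) of every tested gene of 38 gene lists, with the number of tested genes in brackets. Red points were called higher, blue points lower, grey points were not called, and the black bar is the median of the list. The medians run from -2.62 in the mitosis list to 2.65 in the photoreceptor list, and the ribosomal proteins (-0.24) and oxidative phosphorylation (0.46) hold no called gene.

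The genes of cell division fell almost without exception. Of 76 tested genes of the mitosis list 74 were called lower and 0 higher, with a median log2 change of -2.62, and of 51 DNA replication genes 50 were called lower, with a median of -2.19. After median-of-ratios scaling the counts of falls were again 74 and 50. The summed TPM of the mitosis list was 1153, 443, 795 and 841 in the stage 38 and 40 libraries, against 5163, 5386, 4596 and 3816 in the stage 29 and 32 libraries. Stage 38 replicate 2 was the lowest of the 8 and stage 38 replicate 1 the highest of the prehatching 4, and the groups did not overlap. The summed TPM of the replication list was 897, 431, 795 and 845 at stages 38 and 40 and 4302, 3896, 3018 and 2681 at stages 29 and 32, where stage 38 replicate 2 again lay lowest.

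Many of the largest falls among named genes were in cell cycle genes, among them drivers of entry into mitosis and of the separation of chromosomes. Cyclin B1, ccnb1, which activates the mitotic kinase Cdk1, had 45, 5.55, 25.1 and 18.3 TPM at stages 38 and 40 (in the order stage 38 replicates 1 and 2, stage 40 replicates 1 and 2) and 219, 204, 189 and 136 TPM at stages 29 and 32 (same order of replicates). Its log2 change was -3.23 ± 0.40 (adjusted p = 3.67e-06). The mitotic exit activator cdc20 had 21.7, 5.2, 15.5 and 11.2 TPM at stages 38 and 40 and 112, 150.2, 114 and 93.8 TPM at stages 29 and 32, a log2 change of -3.17 ± 0.37 (adjusted p = 1.90e-06). In both genes the highest prehatching library was stage 38 replicate 1, and it lay far under the lowest earlier library. The spindle motor kif11 changed by -3.05 ± 0.29, the polo kinase plk1 by -2.99 ± 0.31, the spindle proteins tacc3 and dlgap5 by -2.97 ± 0.33 and -3.08 ± 0.41, the centromere protein cenpu by -2.94 ± 0.35, and the cyclins ccna2 and ccne2 by -2.93 ± 0.40 and -3.03 ± 0.36. The most abundant member of the mitosis list was the nuclear lamina gene lmnb2, at 86.3 against 337 TPM (mean of 4 libraries each).

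In the replication list the largest falls were those of chaf1b, a subunit of the chromatin assembly factor that loads histones behind the fork, of cdc6, which licenses origins, and of the thymidine kinase tk1. Their log2 changes were -2.8 ± 0.41, -2.66 ± 0.32 and -2.66 ± 0.29. The sliding clamp of the replication fork, pcna, was the most abundant member. It had 123, 58.8, 114 and 136 TPM at stages 38 and 40 and 656, 706, 494 and 463 TPM at stages 29 and 32, a log2 change of -2.46 ± 0.26 (adjusted p = 7.14e-07). The prehatching libraries thus kept a measurable level of the clamp, and none reached the lowest earlier library.

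**Figure D2:**
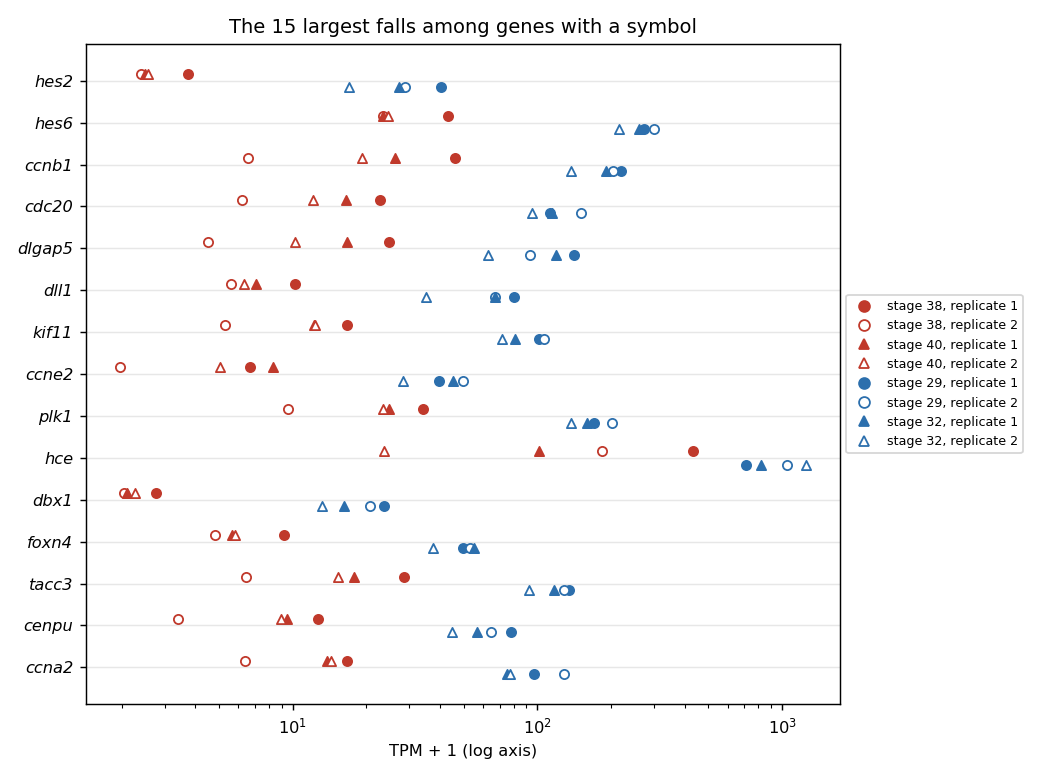
TPM + 1 on a log axis of the 15 named genes with the largest falls, in each of the 8 libraries, with red symbols for stages 38 and 40 (upper row of each gene) and blue symbols for stages 29 and 32 (lower row). Filled symbols are replicate 1 and open symbols replicate 2, circles are stages 38 and 29 and triangles stages 40 and 32. No red symbol of a gene lies right of a blue one, which the choice of these genes required. Stage 38 replicate 2 is the lowest for the cell cycle genes, as for ccnb1 at 5.55 TPM.

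The machinery of growth fell with it, by smaller amounts. Of 30 chromatin genes 24 were called lower (median -1.47), of 69 splicing genes 51 (median -1.37), of 34 proteasome genes 26 (median -1.23) and of 85 ribosome biogenesis genes 52 (median -1.05). Only 1 gene of these lists, the nucleolar RNA helicase ddx21, was called higher (1.01 ± 0.23). These medians lie near the threshold, and after median-of-ratios scaling the calls were 18, 36, 13 and 11. In chromatin, the replication-associated helicase hells changed by -2.46 ± 0.29, the nucleosome remodeller smarca5 by -2.07 ± 0.23 and ezh2, the methyltransferase of the Polycomb mark on histone H3, by -1.97 ± 0.30. The spliceosome genes snrpf, eftud2 and snrpa changed by -2.32 ± 0.47, -2.1 ± 0.25 and -1.99 ± 0.24, while srsf5, the most abundant of that list, did not pass the test (-0.1 ± 0.34, adjusted p = 0.828).

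The nucleolar proteins fbl and ncl, which take part in making ribosomal RNA, averaged 72.4 against 201 TPM and 135 against 364 TPM (stages 38 and 40 first, n = 4 each). Their log2 changes were -1.46 ± 0.24 and -1.38 ± 0.35. The proteasome subunits psma5 and psmb2 of the catalytic core and the base ATPase psmc1 changed by -1.57 ± 0.21, -1.57 ± 0.22 and -1.39 ± 0.20. All 8 libraries kept the groups apart, which the choice of psma5 and psmb2 required. The ribosomal proteins themselves behaved differently in count: of 64 tested, 0 were called in either direction, with a median of -0.24 as deposited and 0.10 after median-of-ratios scaling, so the sign of that median depends on the scaling. Together they held 14.7% of the TPM at stages 38 and 40 and 17.1% at stages 29 and 32 (means of 4 libraries). As deposited the sum was lower in every prehatching library than in any earlier one (log2 difference -0.22), while after median-of-ratios scaling its log2 difference was 0.12. Of 12 genes of the list of RNA-binding growth regulators of the embryo 6 were called lower (3 after median-of-ratios scaling, and 3 without stage 38 replicate 2). Among them were lin28b, which blocks let-7 maturation, at 7.55, 7.14, 4.74 and 5.14 TPM against 18.5, 23.8, 22.2 and 19.6 TPM, and trim71 and igf2bp1, with log2 changes of -2.4 ± 0.28 and -1.78 ± 0.33. The most abundant member, hmga1, belongs to a transcription factor family (HMGA) in the deposited list. It was also called lower (-1.61 ± 0.61), but its groups overlapped, at 131, 20.2, 99.8 and 22.2 TPM against 157, 106, 315 and 104 TPM. After median-of-ratios scaling hmga1 was not called.

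**Figure D3:**
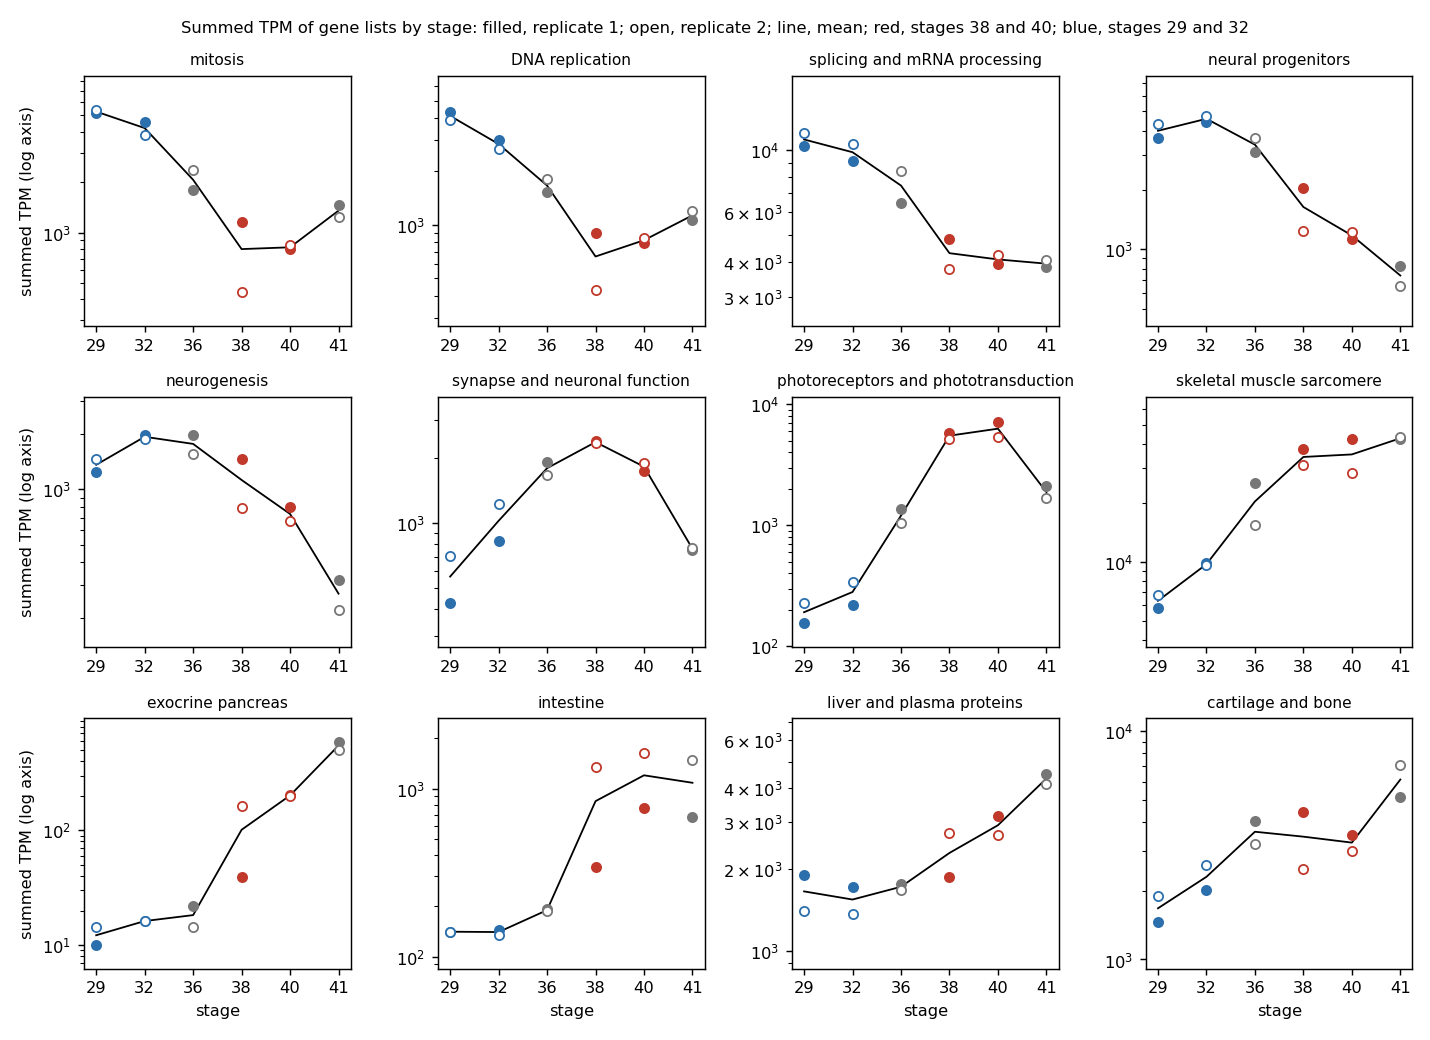
Summed TPM on a log axis of 12 gene lists at stages 29, 32, 36, 38, 40 and 41, with replicate 1 filled, replicate 2 open, the line through the mean, red for stages 38 and 40, blue for stages 29 and 32, and grey for stages outside the comparison. The mitosis list is at 443 to 1153 TPM at stages 38 and 40 and at 3816 to 5386 TPM at stages 29 and 32, while the photoreceptor list is at 5182 to 7160 TPM and 156 to 341 TPM. Photoreceptor and synapse sums lie lower again at stage 41.

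In the nervous system, genes of progenitors and of the making of neurons fell and genes of working neurons rose. Of 31 neural progenitor genes 22 were called lower and 2 higher (median -1.17), and of 40 neurogenesis genes 17 were called lower and 1 higher (median -0.82). After median-of-ratios scaling, 12 and 13 were called lower. Without stage 38 replicate 2, 13 progenitor genes were called lower. The Hairy and Enhancer of split related genes hes2 and hes6 had the largest falls among the tested genes with a symbol. The transcript of hes6 was at 42.3, 22.5, 22.5 and 23.4 TPM at stages 38 and 40, against 272, 299, 259 and 214 TPM at stages 29 and 32 (log2 change -3.24 ± 0.22, adjusted p = 5.30e-09), and that of hes2 (chromosome 7, 7871802 to 7873282 of the deposited gene models) was at 2.73, 1.39, 1.49 and 1.56 TPM, against 39.4, 27.7, 26.3 and 16 TPM (log2 change -3.3 ± 0.37). In both genes stage 38 replicate 1 was the highest prehatching library.

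The Notch ligand dll1, which committing neurons present to their neighbours, had 9.17, 4.59, 6.1 and 5.31 TPM at stages 38 and 40 and 79.1, 65.9, 66.2 and 33.9 TPM at stages 29 and 32, a log2 change of -3.07 ± 0.31. The stem cell factor sox2 changed by -2.5 ± 0.31, the nuclear receptor nr2e1 of neural stem cells by -2.42 ± 0.58, the spinal cord progenitor factor dbx1 by -2.98 ± 0.26, foxn4, a factor of retinal and spinal interneurons, by -2.97 ± 0.24, and the neuroendocrine factor insm1 by -2.33 ± 0.24. The brain fatty acid binding protein fabp7 of radial glia was the most abundant progenitor gene, at 1100.3, 652, 497 and 686 TPM at stages 38 and 40 and 1655, 2430.5, 2482 and 2953 TPM at stages 29 and 32. The neuronal RNA-binding gene elavl3, most abundant of the neurogenesis list, averaged 72.8 ± 36.1 TPM in the stage 38 and 40 libraries and 243 ± 91.7 TPM in the stage 29 and 32 libraries (SD, n = 4 each). The genes that went the other way in these lists were the glial glutamate transporter slc1a3 (2.64 ± 0.13), msi2 (1.54 ± 0.27) and neurod2 (1.64 ± 0.42). For neurod2 the libraries of the groups overlapped.

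Signalling and axial patterning genes moved the same way in part. Of 51 genes of Wnt, Fgf, Shh and Notch signalling 14 were called lower and 0 higher. The share lower was 27.5%, beside 14.2% of all genes. After median-of-ratios scaling 8 were called lower, beside 1636 of all 21179 genes. The Notch modifier lfng and the Wnt receptor fzd3 changed by -2.5 ± 0.23 and -2.41 ± 0.28. Of 9 Hox genes 5 were called lower and 1 higher (hoxc13, 1.0 ± 0.26), but only 1 fall, that of hoxb1 (-1.74 ± 0.23), was still called after median-of-ratios scaling, and without stage 38 replicate 2 the count of falls was 2.

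Of 71 genes of synapses and neuronal function 54 were called higher and 0 lower (median 1.75), and 51 to 59 were called higher under the other scalings. The gene atp1b2, a beta subunit of the sodium pump, was at 53.5, 57.4, 75.1 and 60.2 TPM at stages 38 and 40, against 0.629, 2.42, 2.63 and 6.62 TPM at stages 29 and 32 (log2 change 4.14 ± 0.25, adjusted p = 1.29e-09). Stage 32 replicate 2 was the highest earlier library and stayed far below the lowest prehatching one. The growth-associated stmn2 was the most abundant member and did not pass the test (-0.31 ± 0.30, adjusted p = 0.413).

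Of 23 genes of myelin and glia 12 were called higher and 3 lower (median 1.21). The glutamate transporter slc1a2 of astrocytes, the glutamine synthetase glul and the myelin-associated glycoprotein mag rose by 2.91 ± 0.36, 1.88 ± 0.22 and 2.25 ± 0.18 on the log2 scale. The transcript of mag was at 17.3, 15.5, 17.7 and 14.1 TPM at stages 38 and 40 and at 2.46, 2.63, 2.42 and 2.85 TPM at stages 29 and 32. The 3 falls were fabp7, nkx6-2 (-1.85 ± 0.21) and cnp (-1.38 ± 0.33). The shares of this list were 52.2% higher and 13% lower, beside 17.7% and 14.2% of all genes. Of 14 pituitary and hypothalamic hormone genes 7 were called higher and 0 lower, and the rises were 11 with a pseudocount of 0.1 TPM and 4 with 5 TPM. The precursor of corticotropin and melanocyte-stimulating hormone, pomc, was at 13.8, 45.6, 13 and 40.3 TPM, against 0.927, 3.22, 2.27 and 7.7 TPM (log2 change 2.69 ± 0.42). Both replicates 2 lay above both replicates 1 in each group.

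The eye held the largest single rise of the comparison, that of rhodopsin. Of 34 photoreceptor and phototransduction genes 25 were called higher and 2 lower (median 2.65), and their summed TPM was 5182 to 7160.4 TPM in the stage 38 and 40 libraries and 156 to 341 TPM in the stage 29 and 32 libraries. Rhodopsin, rho, the pigment of rods (chromosome 7, 16841259 to 16842858 of the deposited gene models), had 4377, 3216, 5663 and 3684 TPM at stages 38 and 40, against 0, 0, 2.39 and 9.08 TPM at stages 29 and 32, and its log2 change was 10.74 ± 0.28 (adjusted p = 1.23e-13). The short-wave cone opsin opn1sw had 328, 540.3, 543 and 832 TPM, against 0, 0.46, 0.356 and 2.66 TPM (8.34 ± 0.27), and the cone arrestin arr3, which ends opsin signalling, had 372, 267, 272 and 93.2 TPM, against 0, 0.69, 0.444 and 6.38 TPM (6.77 ± 0.41). All 3 were listed at 0 in stage 29 replicate 1, and stage 32 replicate 2 was the highest earlier library. The medaka green opsin kfh-g and the retinoid carrier rbp3 changed by 7.19 ± 0.21 and 5.66 ± 0.31.

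The 2 photoreceptor list members that fell are not part of the light response. They are otx2, a homeodomain factor of the forebrain and retina (-1.81 ± 0.27), and crb2, a cell polarity gene (-1.85 ± 0.22). In the lens list 3 of 15 genes were called higher and 2 lower (5 and 1 after median-of-ratios scaling). The shares as deposited, 20% and 13.3%, lay near the 17.7% and 14.2% of all genes. The rises were the filament genes bfsp1 and bfsp2 of lens fibres (2.22 ± 0.23 and 1.78 ± 0.35) and lgsn (2.05 ± 0.30), while the crystallin cryba4, the most abundant, averaged 1866 ± 442 TPM in the stage 38 and 40 libraries and 1156 ± 250.0 TPM in the stage 29 and 32 libraries (SD, n = 4 each) and passed the minimum change only after median-of-ratios scaling (0.69 ± 0.25 as deposited, 1.03 scaled).

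**Figure D4:**
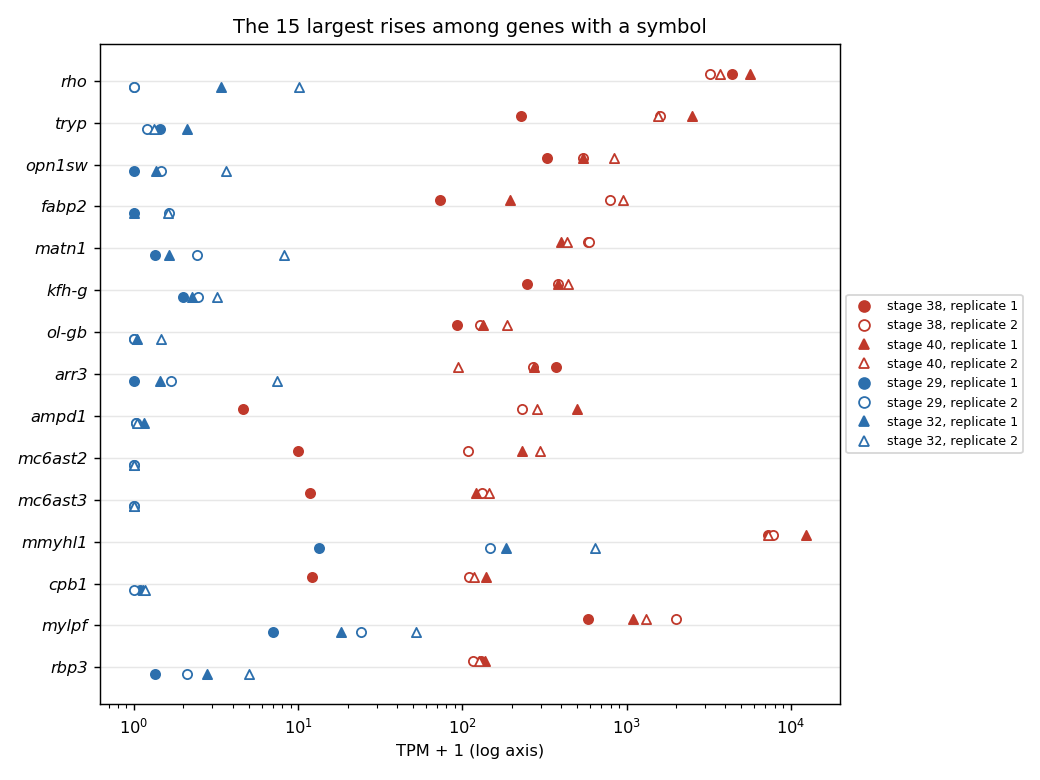
TPM + 1 on a log axis of the 15 named genes with the largest rises, in each of the 8 libraries, with red symbols for stages 38 and 40 (upper row of each gene) and blue symbols for stages 29 and 32 (lower row). Filled symbols are replicate 1 and open symbols replicate 2, circles are stages 38 and 29 and triangles stages 40 and 32. The prehatching libraries of rho sit between 3216 and 5663 TPM, and for ampd1, cpb1, mc6ast2 and mc6ast3 stage 38 replicate 1 lies far left of the other 3.

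Muscle genes took a larger share of the RNA at stages 38 and 40. The genes of the skeletal muscle list held 3.49% of the TPM at stages 38 and 40 and 0.802% at stages 29 and 32 (means of 4 libraries). The summed TPM of the skeletal muscle list was 28517 to 42113 TPM in the stage 38 and 40 libraries and 5831 to 9828 TPM in the stage 29 and 32 libraries, and of its 41 genes 19 were called higher and 3 lower (median 0.78). Skeletal actin, acta1, the most abundant named transcript of the prehatching embryo, had 26808, 16935, 29633 and 17854 TPM at stages 38 and 40 and 2301, 2877, 4416 and 4395 TPM at stages 29 and 32 (log2 change 2.72 ± 0.36, adjusted p = 9.18e-06). The larval myosin heavy chain mmyhl1 had 7315, 7750.2, 12448 and 7241 TPM, against 12.5, 147, 184 and 644 TPM (6.09 ± 0.52), and the regulatory light chain of fast myosin, mylpf, 584, 1987, 1097 and 1320.2 TPM, against 6.06, 23, 17.4 and 50.8 TPM (5.83 ± 0.39). Both myosin genes were lowest in stage 29 replicate 1 and highest among the earlier libraries in stage 32 replicate 2. The calcium pump atp2a1 of the sarcoplasmic reticulum rose by 3.34 ± 0.25.

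The muscle AMP deaminase ampd1 was uneven among the prehatching libraries, at 3.58, 228, 501 and 283 TPM, against 0.0239, 0.0226, 0.148 and 0.0474 TPM at stages 29 and 32 (log2 change 6.71 ± 0.71), with stage 38 replicate 1 far below the other 3. The 3 members called lower were the myogenic factors myf5 and myog (-1.5 ± 0.22 and -1.55 ± 0.25) and the actin crosslinker flnc (-1.49 ± 0.27). In the heart list 0 of 17 genes were called higher and 4 lower. These shares were 0% and 23.5%, beside 17.7% and 14.2% of all genes. The 4 falls were all of transcription factors of heart development (hand1, hand2, tbx5 and tbx20). Their log2 changes ran from -1.49 ± 0.36 to -1.06 ± 0.18, and tbx20 alone was still called after median-of-ratios scaling.

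Skeletal and connective tissue genes rose in part. Of 33 cartilage and bone genes 13 were called higher and 5 lower, and of 45 matrix and connective tissue genes 19 were called higher and 3 lower. The shares of rises were 39.4% and 42.2%, beside 17.7% of all genes. Those of falls were 15.2% and 6.67%, beside 14.2% of all genes. The cartilage matrix protein matrilin, matn1, had 579, 590.0, 399 and 435 TPM at stages 38 and 40 and 0.348, 1.41, 0.644 and 7.22 TPM at stages 29 and 32 (log2 change 7.59 ± 0.36, adjusted p = 7.50e-11), and the groups lay far apart. The ectonucleotidase entpd5, required for mineralization in zebrafish, changed by 4.11 ± 0.25, the collagen crosslinking enzyme lox by 4.73 ± 0.40, the tendon gene tnmd by 3.4 ± 0.28 and periostin, postn (model IGDB14345, 1 of 2 with that symbol), by 3.35 ± 0.34. Among the 5 cartilage and bone genes called lower were the transcription factors twist1, sox5, prrx1 and sox9, with log2 changes between -1.16 ± 0.20 and -1.04 ± 0.22, and 0 of the 5 were called after median-of-ratios scaling. The count of these falls was 1 without stage 38 replicate 2, 2 without stage 40 replicate 2, and 3 without stage 29 replicate 2 or stage 32 replicate 2. Collagen col1a2 averaged 300.2 ± 113 TPM in the stage 38 and 40 libraries and 107 ± 37.3 TPM in the stage 29 and 32 libraries (SD, n = 4 each).

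Vessels and blood gave small counts. The vessel shares were 10% higher and 13.3% lower, beside 17.7% and 14.2% of all genes. Of 30 vessel genes 3 were called higher, led by the smooth muscle actin acta2 at 419, 260.2, 496 and 197 TPM, against 2.37, 2.76, 13.1 and 11.4 TPM (log2 change 5.56 ± 0.32), followed by calponin cnn1 (2.08 ± 0.28) and vwf (1.58 ± 0.14), and 4 were called lower (angpt1, cldn5, robo4 and sox18). Of 19 blood and erythroid genes 0 were called higher and 5 lower. These shares were 0% and 26.3%, beside 17.7% and 14.2% of all genes. Among the 5 falls were the heme synthesis enzymes urod, cpox and hmbs (-1.55 ± 0.32, -1.41 ± 0.29 and -1.15 ± 0.26), and urod and cpox were also called after median-of-ratios scaling. The count of these falls was 3 without stage 40 replicate 1 and 8 without stage 40 replicate 2.

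Genes of the gut and its glands were higher, and unevenly between libraries. Of 28 intestine genes 21 were called higher and 0 lower (median 1.97). The intestinal fatty acid binding protein fabp2 had 72, 788, 193 and 947 TPM at stages 38 and 40 and 0, 0.631, 0 and 0.609 TPM at stages 29 and 32, a log2 change of 7.98 ± 0.69 (adjusted p = 6.85e-08). The brush border disaccharidase si had 12.4, 80.7, 44.5 and 77.4 TPM, against 1.93, 1.23, 1.45 and 1.19 TPM (4.19 ± 0.40), and agr2, a secretory cell chaperone, rose by 3.75 ± 0.27. The summed TPM of the list was 341, 1341, 764 and 1635 at stages 38 and 40 and 141, 140.3, 144 and 135 at stages 29 and 32, and stage 38 replicate 1 was the lowest prehatching library, with stage 40 replicate 1 next.

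Trypsin, tryp, the pancreatic protease (chromosome 16, 21788040 to 21789440 of the deposited gene models), had 227, 1590.5, 2494 and 1544 TPM at stages 38 and 40, against 0.444, 0.2, 1.11 and 0.33 TPM at stages 29 and 32 (log2 change 9.52 ± 0.43, adjusted p = 3.94e-11). Carboxypeptidase B, cpb1, had 11.2, 109, 138 and 117 TPM, against 0.0835, 0, 0.131 and 0.165 TPM (5.97 ± 0.43), and the phospholipase pla2g1b 4.89, 24.9, 39 and 48.4 TPM, against 0.11, 0.379, 0.288 and 0.725 TPM (4.11 ± 0.32). In all 3 genes stage 38 replicate 1 was the lowest prehatching library. Of the 6 exocrine pancreas genes tested, 4 were called higher, and the acinar lineage factor ptf1a was lower (-1.31 ± 0.21). The astacin-family proteases mc6ast2 and mc6ast3 were listed at 0 in all 4 libraries of stages 29 and 32 and had 9.0, 107, 231 and 297 TPM and 10.8, 131, 120.2 and 144 TPM at stages 38 and 40.

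Of 26 genes of liver and plasma proteins 11 were called higher and 0 lower as deposited, and 17 were called higher after median-of-ratios scaling. The complement genes c7 and c6 and the heme carrier hpx changed most. The transcript of hpx was at 4.45, 97, 29.7 and 13.7 TPM, against 0, 0.0767, 0.0207 and 0.142 TPM (4.39 ± 0.57), highest in stage 38 replicate 2, and c7 changed by 4.59 ± 0.23. The retinol carrier rbp4, the most abundant member, did not pass the test (0.23 ± 0.45, adjusted p = 0.698). Of 35 liver metabolism genes 16 were called higher, led by the amino acid enzymes tat and tdo2 and the glucose-6-phosphatase g6pc (4.37 ± 0.50, 4.29 ± 0.39 and 3.65 ± 0.44), and 5 were called lower. Those 5 were the urea cycle genes ass1, asl and cps1 (-1.2 ± 0.36, -1.06 ± 0.33 and -1.57 ± 0.26) and phgdh and shmt1 of serine and one-carbon metabolism (-1.91 ± 0.30 and -1.49 ± 0.20). The count of falls was 3 without stage 38 replicate 1 and 3 after median-of-ratios scaling. The shares of this list were 45.7% higher and 14.3% lower, beside 17.7% and 14.2% of all genes, so the falls lay at the share of all genes.

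**Figure D5:**
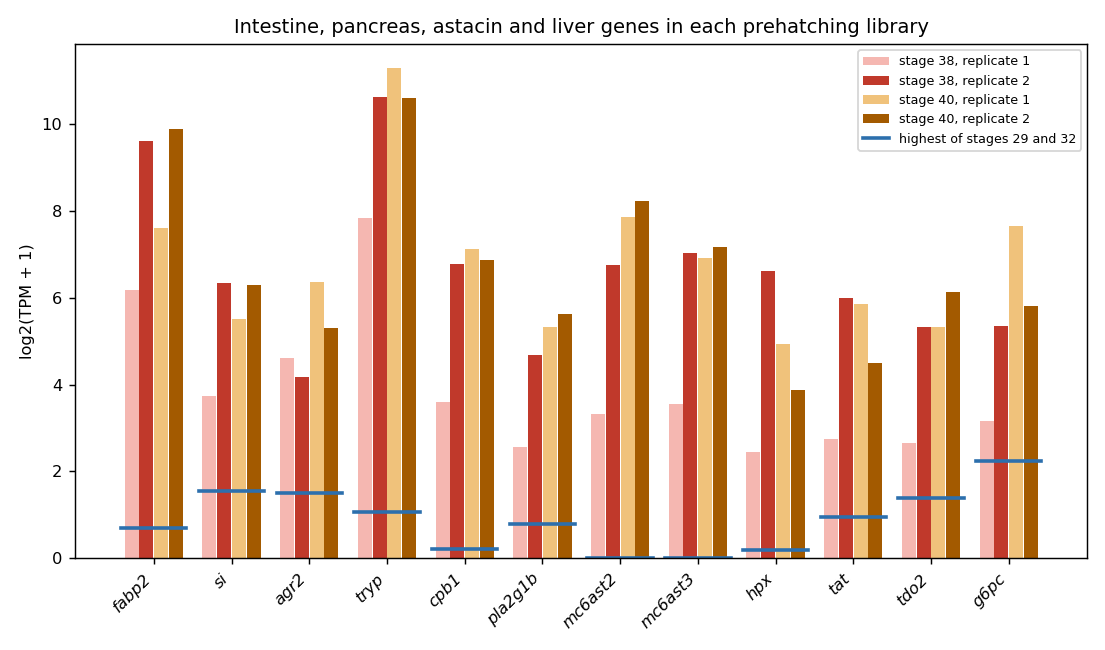
Log2(TPM + 1) of 12 named intestine, pancreas, astacin and liver genes in each prehatching library (bars, no error bar since each is 1 library), with a blue line at the highest of the 4 stage 29 and 32 libraries. Every bar lies above its line, which the choice of these genes required. Stage 38 replicate 1 is the lowest of the 4 bars in 11 of the 12 genes and agr2 is the exception, as for tryp at 227 TPM beside 1544 to 2494 TPM.

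Transport, defence and energy genes rose in part. The shares of rises were 42.3% of ionocyte and kidney genes and 46.2% of glycolysis genes, beside 17.7% of all genes. Those of falls were 11.5% and 0%, beside 14.2% of all genes. Of 26 ionocyte and kidney genes 11 were called higher, among them kcnj10, the ammonia transporter rhcg and the kidney cotransporter slc12a1 (3.86 ± 0.21, 3.74 ± 0.51 and 3.35 ± 0.33), and the 3 falls were the kidney regulators pax2, pax8 and lhx1. For pax2 and lhx1 the libraries of the groups overlapped. Of 33 immune genes 8 were called higher, a share of 24.2% beside 17.7% of all genes, and 2 lower (pax5 and cxcl12). The count of rises was 4 with quantile normalization and 4 with a pseudocount of 5 TPM. The invariant chain cd74, which serves antigen presentation, had 13.4, 23.3, 17.6 and 25.3 TPM at stages 38 and 40 and 1.85, 2.14, 3.33 and 3.63 TPM at stages 29 and 32 (2.47 ± 0.23). Of 13 glycolysis genes 6 were called higher (3 with a pseudocount of 5 TPM), with pfkp at 37.1, 54.8, 79.5 and 73.2 TPM against 4.09, 5.16, 10.9 and 6.06 TPM (3.06 ± 0.22). Of 44 oxidative phosphorylation genes on the list 0 were called, although all 44 estimates were above 0 (median 0.46, range 0.11 to 0.81). After median-of-ratios scaling 3 were called higher (median 0.80), and with quantile normalization 1. The summed TPM was 11873 to 14411 TPM in the stage 38 and 40 libraries and 9334 to 9563 TPM in the stage 29 and 32 libraries. The respiratory chain genes COX1 and COX2 are not on this list. COX2 was called higher, at a mean of 10371 against 4471 TPM (log2 change 1.22, limma adjusted p = 0.00267). COX1, at 16939 against 9374 TPM, stayed under the minimum change (0.91).

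Of 13 genes of the stomach, hatching gland and skin secretion list 2 were called lower and 1 higher, and 10 estimates were above 0 (median 0.34). These shares were 15.4% lower and 7.69% higher, beside 14.2% and 17.7% of all genes. The 2 falls were those of the hatching enzymes, the astacin proteases that digest the egg envelope, and both still showed signal at stages 38 and 40. The high choriolytic enzyme gene hce had 432, 182, 101 and 22.7 TPM at stages 38 and 40 and 714, 1042, 817 and 1247 TPM at stages 29 and 32 (log2 change -2.99 ± 0.39, adjusted p = 7.17e-06), and the low choriolytic enzyme gene lce had 884, 307, 225 and 38.9 TPM, against 1435, 1454, 1739 and 1837 TPM (-2.85 ± 0.39). Stage 38 replicate 1 was highest and stage 40 replicate 2, of the other strain, lowest among the prehatching libraries. At stage 41 both were near 0, with means of 0.0138 and 0.0778 TPM.

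Among gene models without a symbol, chosen here after their values were seen, the largest falls lay side by side on chromosome 8. The models IGDB09448 (8212545 to 8213137), IGDB09449 (8214257 to 8214957), IGDB09450 (8218920 to 8221167) and IGDB09451 (8219033 to 8219638) had log2 changes of -8.18 ± 0.47, -9.27 ± 0.46, -8.07 ± 0.79 and -8.04 ± 0.67. IGDB09449 had 18, 1.73, 6.49 and 6.39 TPM at stages 38 and 40, against 3101, 8140.2, 4418 and 3719 TPM at stages 29 and 32. The model IGDB09450 overlaps IGDB09451 on the other strand. The largest rises without a symbol were those of IGDB21210 on chromosome 3 (9.63 ± 0.35) and of IGDB15973 on chromosome 16 (9.33 ± 0.42), the one next to tryp. RefSeq gives no symbol for any of these models, and 5 of the 6 matched a RefSeq locus that has only an identifier.

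Of 1571 transcription factors tested, 94 (5.98%) were called higher and 410 (26.1%) lower, against 17.7% and 14.2% of all genes. Homeobox genes gave 4 rises and 79 falls of 226, bHLH genes 9 and 45 of 122, HMG box genes 0 and 27 of 61, and C2H2 zinc fingers 23 and 113 of 551. The bZIP family gave 16 rises and 8 falls of 77 and the THR-like nuclear receptors 11 and 1 of 25. After median-of-ratios scaling 134 factors were called higher and 230 lower, and the falls were 43 in the homeobox family, 31 in bHLH, 20 in HMG box, 55 in C2H2 and 4 in bZIP. The largest rise was that of klf9, a target of glucocorticoid and thyroid hormone receptors in other vertebrates. It had 36, 48.3, 176 and 28.3 TPM at stages 38 and 40 and 1.03, 1.15, 0.74 and 1.09 TPM at stages 29 and 32 (4.8 ± 0.40, adjusted p = 4.31e-08). The immediate early factor nr4a1, the adipocyte factor pparg and tub changed by 2.51 ± 0.31, 2.25 ± 0.24 and 2.17 ± 0.24, and irf8, a factor of macrophages, had 3.84, 3.93, 44.2 and 26.3 TPM, against 1.26, 1.49, 1.44 and 1.51 TPM. Beside the falls of hes2, hes6, dbx1 and foxn4 given above stood mybl1 (-2.9 ± 0.27).

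Of 314 long noncoding RNAs tested, 42 (13.4%) were called higher and 49 (15.6%) lower, not far from the 17.7% and 14.2% of all genes. The largest rise was that of IGDB16774, at 71.5, 121, 59 and 120.3 TPM, against 0.686, 3.74, 2.89 and 9.31 TPM (4.4 ± 0.35), and IGDB26411 followed (3.93 ± 0.23). The largest fall was that of IGDB16220 (chromosome 16, 32597151 to 32599761), at 0.774, 0.484, 0.63 and 1.15 TPM, against 292, 211, 74.9 and 39.8 TPM (-6.08 ± 0.36).

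The change had begun by stage 36 and differed in what followed. On the log2 scale the genes called higher had made a median of 60.8% of their change by stage 36, whose level entered no contrast, and those called lower a median of 42.3%. At stage 41 the genes called lower stood at a median of 110% of their change, and 169 of the 3012 (5.6%) had gone back past its midpoint. Of the genes called higher 1482 of 3756 (39.5%) had gone back past the midpoint, and 1303 (34.7%) stood higher still. These are descriptions over genes, and genes are not replicates. Replicate 2 of stage 41 carries the d-rR / Qurt label as well. By example, rho averaged 504 TPM at stage 36 and 1356 TPM at stage 41, while tryp averaged 6.3 and 8097 TPM.

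Few genes were called between the 2 prehatching stages, of which each has 2 libraries. Against stages 29 and 32, stage 38 alone gave 3679 rises (17.4%) and 2755 falls (13%) and stage 40 alone 3800 (17.9%) and 3208 (15.1%). These comparisons share their controls. Between stage 40 and stage 38, 64 genes were higher (0.302%) and 7 lower (0.0331%), and with the replicate block 96 were higher and 14 lower. The genes named next were chosen after their values were seen. The oxygen sensor egln3 had 8.13, 8.02, 101 and 127 TPM in stage 40 replicates 1 and 2 and stage 38 replicates 1 and 2, a log2 change of -3.65 (adjusted p = 0.00333), and irf8 had 44.2, 26.3, 3.84 and 3.93 TPM in the same order, a log2 change of 2.85 (adjusted p = 0.00251). The 3 neighbouring models on chromosome 19, IGDB17557, IGDB17558 and IGDB17559, were higher at stage 40 by 3.78, 3.43 and 2.57. Between stage 32 and stage 29, 0 genes were higher and 1 was lower (0.00472%) by limma, with 1624 at an unadjusted p under 0.05. The fall was that of IGDB11595, at 21.3 and 33.1 TPM at stage 32 and 297 and 269 TPM at stage 29, and it was listed at 0 in all 4 libraries of stages 38 and 40.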

How the data were processed

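Per the labels and the study's methods, RNA of whole embryos went through stranded poly(A) selection and library preparation, and per the submitters' processing notes reads were handled with HISAT2 2.1.0 and StringTie 1.3.3b. The deposited values are TPM per gene model, as the authors computed them. The study cites a published medaka reference genome. The name of its build is not given in the sources used here, and positions are those of the deposited models. Totals were 980148 to 998174 TPM in replicate 1 and 1000000 in replicate 2, and 0 columns lacked a sample. The depth of each library cannot be had from TPM.

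The values, as log2(TPM + 1), of every gene reaching 1 TPM in 2 or more of the 22 stage libraries went into one limma fit (version 3.58.1, R 4.3.3). It had 1 coefficient for each stage, a variance trend and no replicate block. The replicate numbers pair the samples: among stages 29, 32, 38 and 40 the replicate deviations correlated at 0.323 to 0.669 in all 6 pairs of stages, over the 0.1 set as the limit. The pairing is a hint from the data, since the labels do not tie a number to a clutch or batch.

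Symbols came from RefSeq (ASM223467v1) by overlap of gene spans at a Jaccard index of at least 0.5. This matched 18106 of 26549 models, 9404 of them (35.4%) with a symbol. With all positions moved by 200000 bases, 2326 models matched by chance, so some symbols may be wrong. The stages compared and the 38 gene lists were chosen with earlier results of these data known. The genes named are the 15 that rose most and the 15 that fell most, among called genes with a symbol whose groups did not overlap and whose higher mean was 10 TPM or above, the 3 largest changes and the most abundant gene of each list, 5 rises and 5 falls of transcription factors and 3 and 3 of long noncoding RNAs at 5 TPM or more. Where a list had 5 or fewer calls in a direction, members named for that were chosen after their values were seen. Some genes that the rule takes are not reported here. The test was tested on simulated data for this comparison with 21179 genes: at log2 changes of 1, 2, 3 and 4, 42, 96, 98 and 100% of 50 genes each were called. Of the 20979 genes left unchanged, 5 were called. The changes were planted only in genes of a higher mean level, so the shares called do not cover low genes. The simulated libraries also varied independently, without the replicate pairing seen in the data. Alternatives were other pseudocounts, filters, scalings, fits, minimum changes and single libraries left out. Tables were handled in Python 3.11.15 (pandas 2.3.3, numpy 2.4.6), and p-values of single measures were adjusted with scipy 1.17.1.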

Additional observations from a re-analysis of the deposited data

Results flagged for a closer look

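Of 144 groups of 4 libraries examined (the summed TPM of the lists, the 30 genes with the largest rises and falls, and 4 library measures), 11 held 1 library far from the other 3. Chance gives about 1 in 20 where the libraries of a group are alike and independent. Here each group mixed 2 stages and some groups shared genes, so the 11 cannot be set against that rate. In 7 of the 11 the library far from the others was stage 38 replicate 1. It was low for the exocrine pancreas list (39.0 TPM, beside 163 to 205 TPM), for cpb1 (11.2 TPM, beside 109 to 138 TPM), for mc6ast3 (10.8 TPM, beside 120 to 144 TPM) and for ampd1 (3.58 TPM, beside 228 to 501 TPM). It was high for the neural progenitor list (2041 TPM, beside 1126 to 1239 TPM), for hes2 (2.73 TPM, beside 1.39 to 1.56 TPM) and for hes6 (42.3 TPM, beside 22.5 to 23.4 TPM). Stage 38 replicate 2 was low for the DNA replication list (431 TPM, beside 795 to 897 TPM). The larval myosin mmyhl1 was high in stage 40 replicate 1 (12448 TPM, beside 7241 to 7750 TPM). Among the earlier libraries, stage 32 replicate 1 was high for the germ cell list (232 TPM, beside 189 to 196 TPM) and stage 32 replicate 2 for ol-gb (0.454 TPM, beside 0 to 0.0466 TPM). Of those 232 TPM the gene sox9, also a member of the cartilage and bone list, held 132 TPM.

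The change of irf8 against stages 29 and 32 differed between stages 40 and 38 in a test of the difference itself, by 2.85 on the log2 scale (limma, adjusted p = 0.00251), with both libraries of stage 40 above both of stage 38.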

How the results depend on the processing

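For stages 38 and 40 against stages 29 and 32, the count of genes called higher or lower moved past 1.5 times under few settings. A pseudocount of 5 TPM gave 1808 higher and 1922 lower, median-of-ratios scaling gave 1636 lower, no minimum change gave 5682 higher and 5436 lower, and a minimum log2 change of 2 gave 1226 higher and 515 lower. Leaving out 1 library gave 3440 to 4007 higher and 2537 to 3486 lower, with the fewest falls without stage 38 replicate 2 and the most without stage 38 replicate 1. The replicate block gave 3772 higher and 3042 lower, and leaving out both stage libraries of the other strain (replicate 2 of stages 40 and 41) gave 3684 and 2992. For stage 40 against stage 38 the block gave 14 lower, and without stage 40 replicate 2 the counts were 84 and 5. For stage 32 against stage 29 the block gave 1 higher. The pairing changed no other count by over 1.5 times. Stage 38 alone gave 3760 higher and 2881 lower with the block, and stage 40 alone 3872 and 3338 with it, or 3397 and 2730 without stage 40 replicate 2. The 30 genes with the largest rises and falls kept their call and direction in all 600 values of the 20 refitted settings. They were chosen for the largest changes in these same libraries, so this could hardly come out otherwise and does not bear on weaker calls. Among the 137 named genes that were called, 2701 of 2740 values kept call and direction. The rest fell under the threshold without a change of sign, as for hand1, sox9 and hoxd3. Single list counts of 5 or more moved past 1.5 times in places, such as ribosome biogenesis, with 11 falls after median-of-ratios scaling, and the cause was not tested beyond the scaling itself. A pseudocount of 5 TPM gave 27 falls in ribosome biogenesis, 8 in signalling, 35 rises and 252 falls of transcription factors, and 18 rises and 26 falls of long noncoding RNAs. Quantile normalization gave 17 proteasome falls and 18 rises of liver and plasma proteins. TPM hold no depth, and limits from counting error are not known here.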

Other observations

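Pigment cell and germ cell genes held few calls. The shares higher and lower were 4.55% and 4.55% of pigment cell genes and 3.57% and 7.14% of germ cell genes. Those of clock genes, 22.2% and 11.1%, lay near the 17.7% and 14.2% of all genes. Of 22 pigment cell genes 1 was called higher (xdh, 1.44 ± 0.19, with overlapping groups) and 1 lower (pax7, -1.17 ± 0.30), and the melanosome gene pmel averaged 162 ± 57 TPM in the stage 38 and 40 libraries and 201 ± 38 TPM in the stage 29 and 32 libraries (SD, n = 4 each) without passing the test. The transcript of xdh was at 4.81, 5.33, 15.4 and 14.6 TPM at stages 38 and 40 and 0.803, 2.41, 3.65 and 5.01 TPM at stages 29 and 32, and stage 40 was higher than stage 38 by 1.40 on the log2 scale (limma, adjusted p = 0.0334). Of 28 genes of the germ cell list 1 was called higher (gsdf, 1.04 ± 0.18) and 2 lower (nanos1a, -2.21 ± 0.32, and sox9). The same sox9 model is counted in the cartilage and bone list. It averaged 50.1 TPM at stages 38 and 40 and 109 TPM at stages 29 and 32, where the germ cell list summed to 106 and 203 TPM. The sum of that list therefore says little about germ cells. Of 9 clock genes the repressors bhlhe41 and per2 were called higher (1.89 ± 0.40 and 1.34 ± 0.40) and rorb was called lower (-1.75 ± 0.28). For per2 the libraries of the groups overlapped. The time of day of collection is not given in the sources used here.

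Of 20 endocrine pancreas genes 7 were called higher, among them the prohormone processing genes pcsk1, at 16.5, 18.5, 16.5 and 20.8 TPM at stages 38 and 40 and 1.14, 1.83, 1.51 and 3.09 TPM at stages 29 and 32, and cpe (2.28 ± 0.25). The 4 called lower were the transcription factors nkx6-1, nkx6-2, insm1 and pax6. The shares of this list were 35% higher and 20% lower, beside 17.7% and 14.2% of all genes. Of 12 genes of xenobiotic and hormone metabolism 3 were called higher (cyp3a40, adh5 and maob, with log2 changes of 2.51 ± 0.36, 2.24 ± 0.28 and 1.54 ± 0.36) and 1 lower (cyp26a1, -1.14 ± 0.33). With so few genes, the shares of 25% and 8.33% lay near those of all genes, and the median of the list was -0.04. Of 36 genes of stress response and apoptosis 8 were called higher, among them klf9 and egr1 (1.91 ± 0.40), and 2 lower, among them the cell cycle inhibitor cdkn1c (-1.75 ± 0.26). The count of 8 was 5 without stage 40 replicate 1, stage 29 replicate 1 or stage 32 replicate 1. The stress list had 22.2% higher and 5.56% lower, beside 17.7% and 14.2% of all genes.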
